A study of Mus musculus with 12 samples.

Results

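Circular RNAs (circRNAs) from genes of vesicle and endosome trafficking were examined in mouse liver. The set was taken by host gene name: every circRNA lying inside, and with at least 1 end on an exon boundary of, a protein-coding gene whose name starts with Vps, Rab, Snx, Exoc, Sec or Tbc1d followed by a digit, in the GENCODE M21 annotation of the GRCm38 genome. This rule found 449 of the 16445 circRNAs in the table (2.73%), from 106 of the 4734 genes that hosted a circRNA by the same position rule. In 438 of them both ends lay on exon boundaries, and in 11 only 1 end did. A single circRNA, from Snx14, had a second possible host gene.

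The study compared 2 groups of 6 mice, all given carbon tetrachloride (CCl4), a liver toxin that produces fibrosis when given repeatedly. The Control group received 10% CCl4 at 10 µl per 10 g of body weight by injection, 2 times a week for 8 weeks. The PZH group received the same CCl4 and, once daily from week 2 to week 8, Pien Tze Huang (PZH), a Chinese patent medicine, dissolved in water at 25 mg/ml. The labels give the strain as C57BL/8 and state no age, sex or PZH dose per body weight. No liver free of CCl4 is among those analysed here, and every comparison is of PZH against no PZH in CCl4-treated liver.

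A circRNA forms when the splicing machinery joins the end of an exon to a start that lies upstream of it, closing a ring, and it is counted from reads across that back-splice junction. Vesicle trafficking moves membrane and cargo between the endoplasmic reticulum (ER), the Golgi, endosomes, lysosomes and the cell surface. Coats such as COPII form vesicles, Rab GTPases mark each membrane and are switched off by TBC-domain proteins, tethers such as the exocyst and HOPS capture vesicles, and retromer with sorting nexins returns cargo from endosomes. In hepatocytes these steps carry plasma protein secretion, receptor uptake and delivery of transporters to the bile canaliculus. Only circular junctions were measured here, so nothing below is a level of the linear mRNA or the protein.

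Junctions that carry the results below are printed as the 20 last bases of the donor exon in lower case followed by the 20 first bases of the acceptor exon in capitals, 5′ to 3′ on the host's strand. Each is the sequence that a read must cross to be counted. The Vps13b circle had the smallest unadjusted p among those lower with PZH, and the other 4 were the next most abundant after the Vps45 circle. Bases were read from the GENCODE M21 transcripts, and exons are numbered along 1 transcript of each host.
Vps13b exons 18 to 19, chr15:35533296-35534360, plus strand: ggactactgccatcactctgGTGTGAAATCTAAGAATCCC
Tbc1d14 exons 4 to 7, chr5:36519273-36525048, minus strand: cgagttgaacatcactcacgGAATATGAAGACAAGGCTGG
Snx5 exons 8 to 9, chr2:144255340-144255604, minus strand: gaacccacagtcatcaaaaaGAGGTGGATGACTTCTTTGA
Tbc1d5 exons 10 to 13, chr17:50917527-50920603, minus strand: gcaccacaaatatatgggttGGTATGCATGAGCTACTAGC
Snx13 exons 2 to 5, chr12:35078900-35086984, plus strand: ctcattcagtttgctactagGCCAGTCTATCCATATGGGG

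The Snx5 circle is also shown whole as annotated, since at 182 nt it is short enough to print. Only its ends were measured, and the bases between them are those of the transcript, so a retained intron would not be seen. As annotated it holds coding sequence from exons 8 and 9, and the capitals mark the 20 bases on each side that meet at the junction.
Snx5 exons 8 to 9: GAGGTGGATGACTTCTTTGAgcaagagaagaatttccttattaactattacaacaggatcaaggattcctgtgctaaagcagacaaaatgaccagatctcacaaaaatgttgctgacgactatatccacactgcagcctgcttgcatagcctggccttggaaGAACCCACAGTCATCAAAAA

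Across the 438 circles with both ends on boundaries, the donor exon ended in G in 341 (77.9%) and in AG in 244 (55.7%), and the median GC content was 45.7% (range 32.6% to 60.8%). Exon counts, lengths and coding content are those of the annotated exons between the ends. These circles spanned a median of 4 annotated exons, against 3 over all circRNAs of the table placed in the same way. Single-exon circles made up 2.74% (12 circles) against 3.98%, and circles of 2 to 5 exons 77.4% against 79.8%. Circles of 10 or more exons made up 3.88% (17 circles) against 2.08%, and the longest, from Vps13a exons 20 to 39, spanned 20 exons and was above 0 in 1 library. The median exonic length was 449 nt against 417 nt. An acceptor at exon 2 was used by 101 circles (23.1%, against 24.7% of all), and none started at exon 1. The circle lay wholly in coding sequence in 402 of 438 (91.8%, against 86.8%), and 158 of those 402 (39.3%, against 38.3%) had a length divisible by 3. The plot of exons spanned shows both distributions with their peak at 2 exons.

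**Figure D1:**
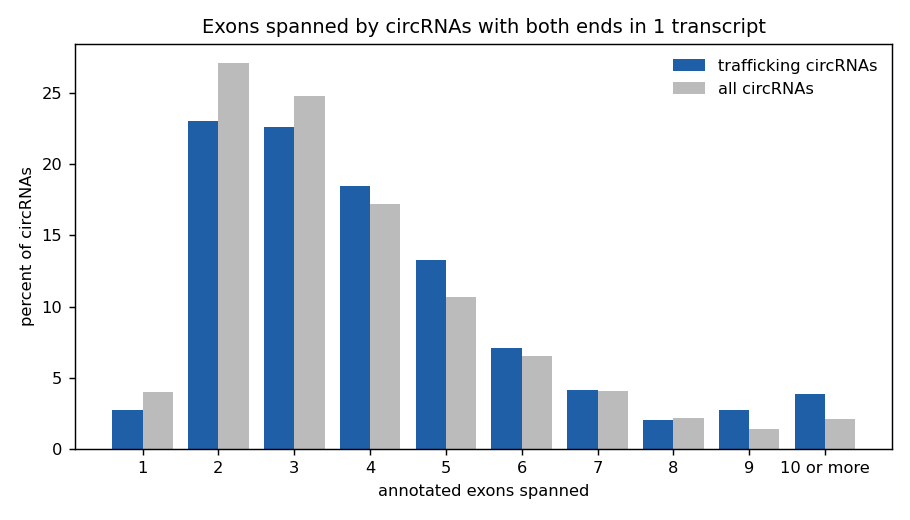
Share of circRNAs (percent, y axis) by the number of annotated exons they span (x axis), for the 438 trafficking circles with both ends on boundaries (blue) and for all circRNAs of the table with both ends in 1 transcript (grey). Both distributions peak at 2 exons, and circles of 10 or more exons make up 3.88% of the trafficking circles and 2.08% of all.

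Levels are given in SRPBM, the depth-scaled signal of junction-spliced reads that the authors deposited. The table holds no read counts. Its values rise in steps of 0.292 to 0.36 SRPBM depending on the library, and counts of such steps are given as read-pair equivalents. Each value belongs to 1 junction, and levels of different circles are compared per junction, not per length. The 12 libraries held between 80442 and 130487 such equivalents over all circRNAs and between 28922 and 41080 summed SRPBM, with Control 2, Control 6 and PZH 1 the shallowest. Of the marker hosts, 14 of 15 hepatocyte genes gave circRNAs, with summed levels of 455 to 569 SRPBM in the PZH libraries and 385 to 602 in the Control libraries. For stellate cells 3 of 10 marker genes (Reln, Dlc1 and Zeb2) gave circRNAs, summing to 8.93 to 21.03 SRPBM with PZH and 1.78 to 9.60 in Control. Pdgfrb, Col1a2, Col3a1, Lrat, Des, Hand2 and Ngfr gave none. The stellate sum rests on 10 circles, of which 3 entered the fit described below, 2 with a positive sign and 1 with a negative sign. None of them passed adjustment (smallest limma adjusted p = 0.454). The macrophage and immune sum (4 of 8 genes) was 40.6 to 65.7 against 34.1 to 58.7 SRPBM, the endothelial sum (6 of 8) 78.1 to 106 against 77.9 to 130, and the cholangiocyte sum (2 of 7) 68.3 to 99.5 against 57.8 to 101.

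Trafficking circles together carried 630 ± 94.8 SRPBM in the PZH libraries (SD, n = 6, range 520 to 728) and 594 ± 70.2 in the Control libraries (SD, n = 6, range 477 to 662). As a share of each library's circRNA signal that was 1.73% ± 0.0902 with PZH and 1.69% ± 0.103 in Control, and the 2 ranges overlapped (1.60% to 1.83% and 1.53% to 1.80%). By host family the signal came mainly from Vps genes (28.9% of it), then Snx (19.8%), Tbc1d (17.6%), Sec (12.8%), Rab (11.6%) and Exoc (9.34%). The Vps sum was 185 ± 31.2 SRPBM with PZH and 168 ± 17.9 in Control, and the Tbc1d sum 106 ± 10.9 and 109 ± 32.8 (SD, n = 6 each). For all 6 families the ranges of the groups overlapped, as the plot of family sums shows.

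**Figure D2:**
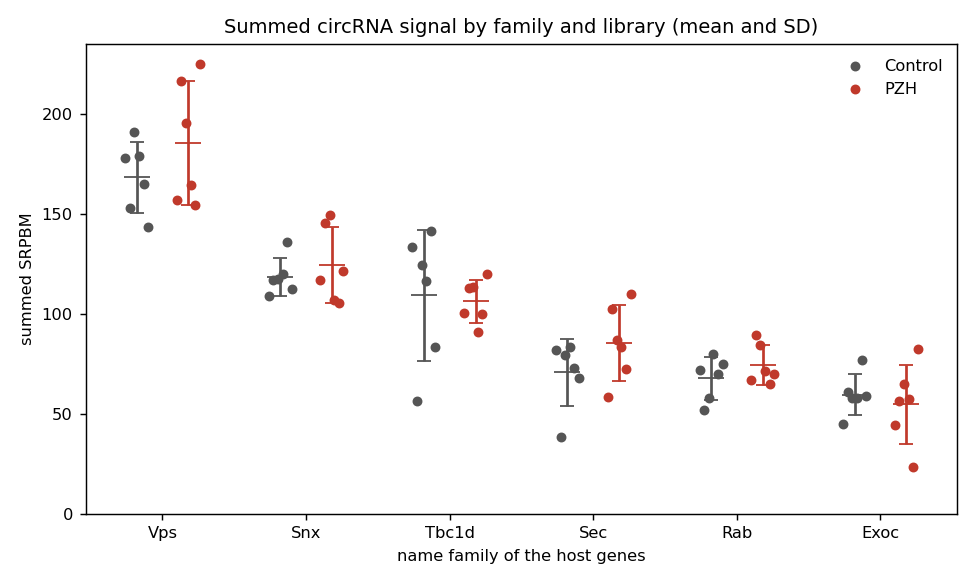
Summed SRPBM of the trafficking circles (y axis) by name family of the host gene (x axis), 1 point per library, with the mean and SD of the 6 Control (grey) and 6 PZH (red) libraries. The points of the groups overlap in each of the 6 families; the lowest Sec value, 38.3, is Control 2.

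Most trafficking circles were sparse. Of the 449, 223 (49.7%) were above 0 in a single library, against 44.2% of all circRNAs, and 27 (6.01%, against 6.62%) were above 0 in all 12. Those 27 carried 50.7% of the signal of the set, and the 10 most abundant carried 32.5%. A listed 0 in this table need not mean absence. The fits below enter each 0 as a value, except in an alternative that treats it as missing, and counts of libraries above 0 use it as listed. Among 26 well-covered circles (above 0 in 11 or 12 libraries, with a median there of 20 read-pair equivalents or more), 6 were listed at 0 in exactly 1 library. The Exoc4 circle of exons 8 to 9 held 42.8 to 89.6 read-pair equivalents in 11 libraries and was listed at 0 in PZH 5. Vps41 exons 8 to 10 held 34.8 to 71.9 in 11 libraries and was listed at 0 in PZH 4. The other 4 were Rab2a exons 4 to 6 in Control 3, Exoc6b exons 4 to 5 in PZH 1, and both Vps13b exons 18 to 19 and Tbc1d14 exon 2 in PZH 3. Where circles with such an entry are taken up below, they are therefore described by their library values or ranges.

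For the comparison of the groups, log2(SRPBM + 0.636) was fitted with limma for the 3870 circRNAs above 0 in at least 6 of 12 libraries, with Benjamini-Hochberg adjustment over all 3870. Of the trafficking circles 95 of 449 entered this fit, from 27 with a value in every library and 68 with at least 1 entry at 0. None of the 95 had an adjusted p under 0.05, against 0.0517% of all circRNAs tested (2 of 3870), and the smallest adjusted p among them was 0.408 (limma). At an unadjusted p under 0.05, 2 circles were higher with PZH, where the background share was 4.55%, and 1 was lower, where it was 3.0%. That is 3 of 95 (3.16%) in either direction, against 7.55% of all circRNAs tested. The log2 fold change was positive for 58 of the 95 (61.1%), against 54.3% of all, with a median of 0.13 against 0.06. No circle had all 6 PZH libraries above all 6 Control libraries (0.491% of all tested did) or all 6 below (0.181%). For the 27 circles above 0 in every library the median standard error of the log2 fold change was 0.33, and for the 68 with an entry at 0 it was 0.67. The plot of fold change against level places the trafficking circles within the spread of the others.

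**Figure D3:**
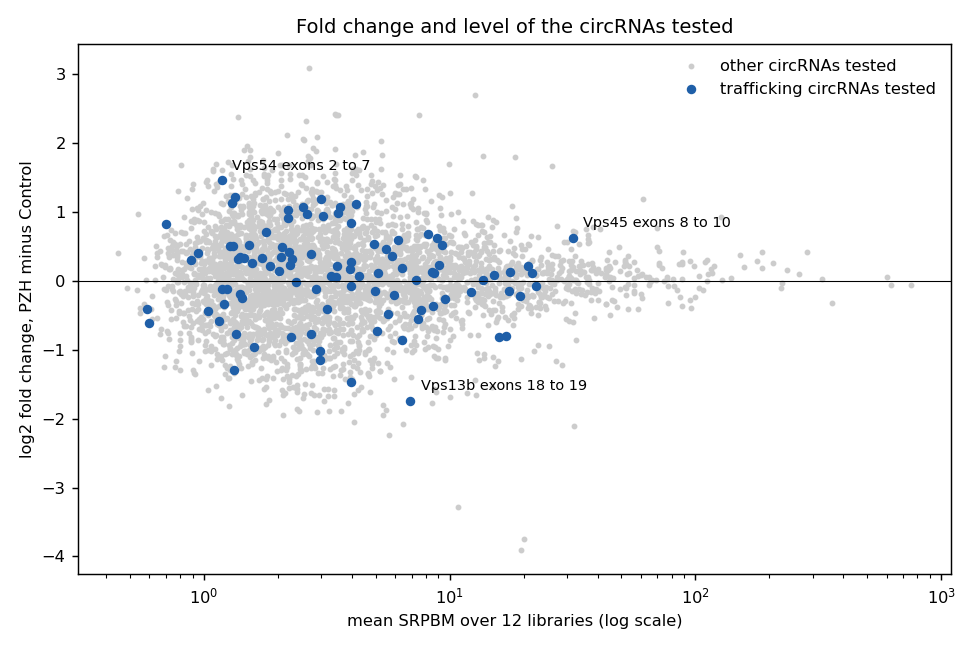
Log2 fold change, PZH minus Control on the log2(SRPBM + 0.636) scale (y axis), against mean SRPBM over 12 libraries (log x axis) for the 3870 circRNAs tested; the 95 trafficking circles are blue. The 3 named circles, at 0.63 (Vps45), 1.46 (Vps54) and -1.75 (Vps13b), are those with an unadjusted p under 0.05.

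The most abundant trafficking circle came from Vps45, an SM-family protein that works with syntaxins in membrane fusion at endosomes and the Golgi. Its circle of exons 8 to 10 (417 nt, all coding) ranked 173rd of all circRNAs by mean level. It measured 30.4, 46.2, 36.9, 29.6, 34.2 and 55.1 SRPBM in PZH 1 to 6 and 19.4, 22.2, 26.1, 30.6, 21.5 and 27.2 in Control 1 to 6. The groups overlapped through 1 library: Control 4 lay just above PZH 4 and PZH 1. The mean was 38.7 ± 10.0 SRPBM against 24.5 ± 4.16 (SD, n = 6 each), a log2 fold change of 0.63 (SE 0.19), with an unadjusted p of 0.00291 that did not pass adjustment (limma, adjusted p = 0.408). With 1 library left out in turn the log2 fold change stayed between 0.52 and 0.70 and the adjusted p between 0.300 and 0.569. In bulk liver, more cells of a type and more of the RNA per cell cannot be told apart, and the part of the stellate marker sums in this difference was not tested.

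Vps45 gave 4 circles, all with the same acceptor at exon 8. The circle of exons 8 to 14 was above 0 in 5 PZH libraries (1.28 to 6.72 SRPBM) and in Control 2 and Control 6 (4.95 and 6.92). A junction with only its acceptor on an annotated boundary read 1.77, 2.82, 2.46 and 2.51 SRPBM in PZH 2, 3, 5 and 6 and was listed at 0 in the other 2 PZH libraries and all 6 Control libraries. It is 1 of 2 trafficking circles above 0 in at least 4 PZH libraries and in no Control library, a pattern found for 0.268% of all circRNAs. The other was Snx13 exons 2 to 8, at 2.56, 1.22, 0.629 and 1.33 SRPBM in PZH 1, 2, 5 and 6. All 4 Vps45 circles summed to 44.0 ± 11.4 SRPBM with PZH (33.4 to 60.7) and 26.8 ± 5.57 in Control (19.4 to 34.1), a log2 fold change of 0.69 (SE 0.20, unadjusted p = 0.00203, limma adjusted p = 0.264 over 2205 host sums). Over the 12 libraries the circles whose log2 levels followed Vps45 exons 8 to 10 most closely were Rmdn2 exons 3 to 5 (Pearson r 0.904), Mpp6 exons 2 to 6 (0.862) and Lin54 exons 2 to 4 (0.854), against a median r of 0.151 over 1088 circRNAs. These libraries share depth and group, and the values are a description.

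Host sums were fitted the same way for 54 trafficking hosts. None passed adjustment, nor did any of the 2205 host sums (0.0%). At an unadjusted p under 0.05, 2 were higher with PZH (background 5.08%) and 0 lower (background 3.04%), so 2 of 54 in either direction, against 8.12%. The sign was positive in 32 of 54 (59.3%), against 54.8% of all. The second was Sec24a, the cargo-binding subunit of the inner COPII coat, whose 20 circles summed to 23.4 ± 3.04 SRPBM with PZH and 15.2 ± 6.27 in Control (SD, n = 6 each). Its log2 fold change was 0.74 (SE 0.30, unadjusted p = 0.0239, limma adjusted p = 0.539). Control 2, a shallow library, was lowest at 4.28 SRPBM, and without it the log2 fold change was 0.43 with an unadjusted p of 0.0565. Vps13d followed at 18.6 ± 6.08 against 13.1 ± 5.25 SRPBM. The smallest p for a lower sum belonged to Tbc1d12 (12.03 ± 4.61 against 16.2 ± 3.58 SRPBM, unadjusted p = 0.136, limma adjusted p = 0.700), Vps13b (41.3 ± 8.62 against 50.5 ± 11.9 SRPBM) and Sec23ip, a Sec23-binding protein of ER exit sites, whose 5 circles gave 0 in 4 PZH and 2 Control libraries. The Tbc1d12 sum includes a circle, exons 4 to 6, that was listed at 0 in PZH 1, 2 and 4.

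The 10 most abundant circles came from 10 host genes, among them TBC proteins, sorting nexins, a VPS13 protein, a Rab3 GAP subunit, exocyst, HOPS and COPII, and 8 of them were above 0 in every library. The plot of the 12 highest circles shows them library by library.

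**Figure D4:**
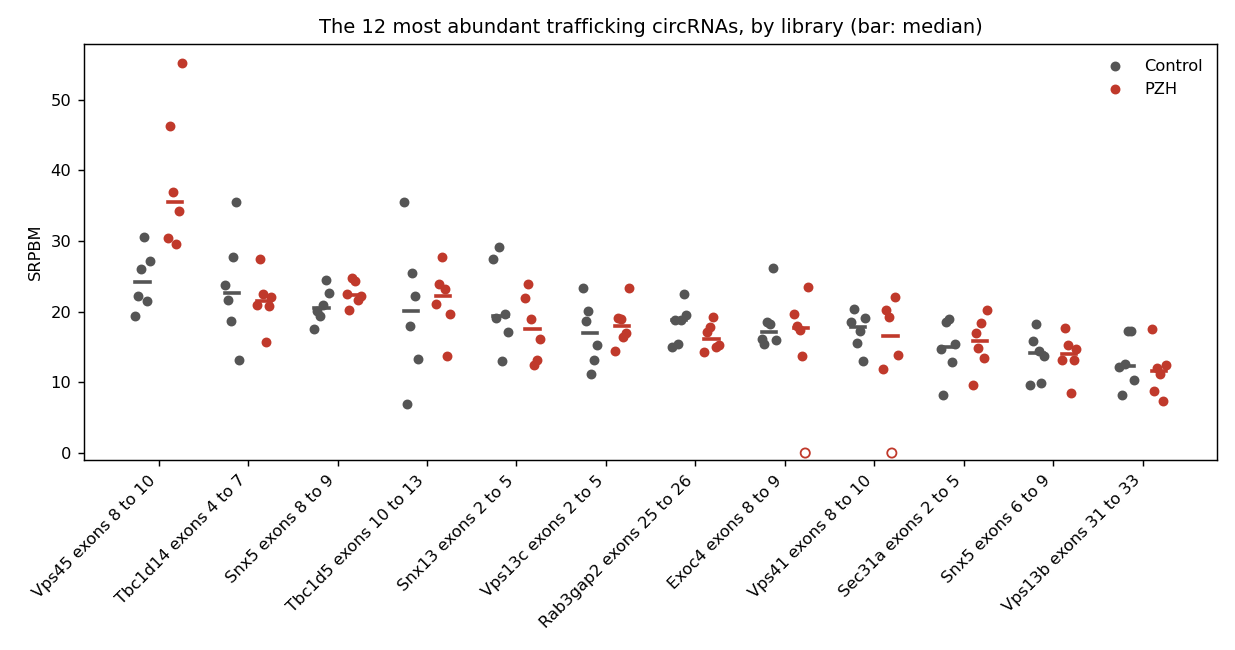
SRPBM (y axis) of the 12 trafficking circles with the highest mean (x axis), 1 point per library, Control grey and PZH red, with a bar at each group's median; open circles are entries listed at 0 (Exoc4 in PZH 5, Vps41 in PZH 4). For Vps45 5 of 6 Control points lie below all PZH points, while for the other 11 circles the groups overlap over most of their range.

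At the ER, Sec31a forms the outer cage of the COPII coat that carries new proteins toward the Golgi. Its circle of exons 2 to 5 measured 9.62, 16.9, 14.9, 18.4, 13.5 and 20.2 SRPBM in PZH 1 to 6 and 14.6, 8.25, 18.5, 18.9, 12.9 and 15.4 in Control 1 to 6, so the groups covered nearly the same range. Exon 2 of Sec31a was the acceptor of 6 circles, the most for any acceptor among these hosts. The smaller circle of exons 2 to 4 read 6.14 ± 3.11 SRPBM with PZH and 8.68 ± 2.30 in Control, and the longer one of exons 2 to 7 had values above 0 in 5 libraries with PZH and 2 without. Their log2 fold changes had opposite signs, -0.56 (SE 0.36) and 1.22 (SE 0.63), and neither passed (limma adjusted p = 0.726 and 0.686). Of the 11 COPII circles tested, which come from Sec31a and Sec24a alone, 10 had a positive log2 fold change, 8 to 10 of the 10 or 11 still tested when 1 library was left out, and 7 of 10 when entries at 0 were treated as missing. Sec24a exons 7 to 8 gave 2.79 to 5.48 SRPBM in all 6 PZH libraries and 0.664 to 4.82 in 5 Control libraries (log2 fold change 1.19, SE 0.58, limma adjusted p = 0.654). Sec63, the J-domain partner of the Sec61 translocon, gave 8.92 ± 3.26 against 8.28 ± 3.34 SRPBM for exons 2 to 4.

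Rab GTPases gave 31 circles from 16 genes, and 8 were tested, 5 with a positive sign. Rab2a, which acts between ER and Golgi and on lysosomes, had the highest: exons 4 to 6 read 5.12, 12.99, 10.996, 12.7, 8.52 and 7.54 SRPBM in PZH 1 to 6 and 10.5, 13.2, 0, 10.5, 8.05 and 6.44 in Control 1 to 6. Apart from the 0 in Control 3 the groups covered a similar range. Rab12 exons 2 to 4 was above 0 in 5 PZH libraries (1.00 to 5.78 SRPBM) and 2 Control libraries (1.46 and 1.92), with a log2 fold change of 1.12 (SE 0.63, limma adjusted p = 0.686). Rab3gap1 and Rab3gap2 are the catalytic and the other subunit of a Rab3 GAP that also activates Rab18. The Rab3gap2 circle of exons 25 to 26 carried 96.5% of its host's circular signal and read 16.5 ± 1.91 SRPBM with PZH and 18.4 ± 2.79 in Control. Rab3gap1 exons 17 to 19 read 7.14 ± 1.29 against 7.43 ± 2.97, and Rab3gap1 exons 4 to 5 was above 0 in 6 PZH libraries (1.93 to 11.5) and 4 Control libraries (2.53 to 6.02).

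The Tbc1d genes, a group taken by name that includes proteins that switch Rabs off, gave 77 circles from 21 genes. Of these circles 15 were tested, 8 with a positive sign. Tbc1d14, a Rab11-binding protein that regulates autophagosome formation, had a circle of exons 4 to 7 at 20.96, 27.5, 22.4, 15.7, 20.8 and 22.1 SRPBM in PZH 1 to 6 and 23.7, 21.6, 18.7, 27.8, 35.5 and 13.2 in Control 1 to 6. The PZH values all lay inside the Control range. A shorter Tbc1d14 circle with the same acceptor, exons 4 to 6, was above 0 in 2 PZH libraries (1.35 and 1.24) and 5 Control libraries (0.809 to 4.69), with a log2 fold change of -1.29 (SE 0.62, limma adjusted p = 0.654). Tbc1d5, the retromer-bound GAP of Rab7, gave exons 10 to 13 at 21.6 ± 4.71 against 20.2 ± 9.94 SRPBM and exons 9 to 13 at 10.95 ± 1.87 against 7.64 ± 2.30. The second difference, 0.53 on the log2 scale (SE 0.29), had an unadjusted p of 0.0827 (limma adjusted p = 0.686). Tbc1d12 exons 4 to 6 read 3.38, 5.09 and 8.04 SRPBM in PZH 3, 5 and 6, was listed at 0 in the other 3 PZH libraries, and gave 1.64 to 7.67 in all 6 Control libraries. Its sign depended on the zeros: the log2 fold change was -1.47 (SE 0.72) as fitted and 0.13 with the zeros as missing. Tbc1d12 exons 7 to 8 (1.51 to 2.55 SRPBM in 4 Control libraries) and Snx9 exons 2 to 5 (0.707 to 2.33 in 4) were the 2 circles above 0 in at least 4 Control and no PZH libraries, a pattern of 0.213% of all circRNAs.

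Among the tethers that capture incoming vesicles, the HOPS subunit Vps41, which acts in fusion with lysosomes, gave exons 8 to 10 at 11.8, 20.2, 19.2, 0, 22.1 and 13.9 SRPBM in PZH 1 to 6 and 18.5, 20.4, 15.5, 17.2, 13.1 and 19.1 in Control 1 to 6. With the 0 in PZH 4 its log2 fold change was -0.81 (SE 0.60), and without that library it was -0.01. Exoc4, a subunit of the exocyst that tethers vesicles to the plasma membrane, gave exons 8 to 9 at 19.7, 17.95, 17.4, 13.8, 0 and 23.4 SRPBM in PZH 1 to 6 and 15.4 to 26.1 in Control. The value was -0.81 (SE 0.61) with PZH 5 and 0.0077 without it. For both circles the fitted difference was close to 0 once the single entry at 0 was out. Exoc6 and Exoc6b are the paralogous Sec15 subunits that bind Rab11. Exoc6 exons 2 to 5 read 7.58 ± 2.79 against 9.59 ± 2.71 SRPBM, and Exoc6b exons 4 to 5 read 3.73 to 10.7 in 5 PZH libraries, 0 in PZH 1 and 5.31 to 9.12 in Control (log2 fold change -0.86, SE 0.53, and -0.31 without PZH 1). In counts, 0 of 3 HOPS and CORVET circles tested (1 of 2 with zeros as missing) and 2 of 7 exocyst circles (2 of 6) had a positive sign.

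GARP and EARP, the tethers for endosome-to-Golgi return and recycling, gave 30 circles from Vps50, Vps53 and Vps54, and 6 of 9 tested had a positive sign (3 of 5 with zeros as missing). Vps54 exons 2 to 7 read 2.72, 3.66, 3.66, 0, 1.54 and 0.999 SRPBM in PZH 1 to 6 and was above 0 only in Control 4 and Control 5, at 0.997 and 0.584. Its log2 fold change of 1.46 (SE 0.58) had an unadjusted p of 0.0193 (limma adjusted p = 0.566), at a mean of 3.70 read-pair equivalents per library. The EARP subunit Vps50 gave 19 circles, and the main one, exons 13 to 16, read 8.50 ± 2.49 against 10.6 ± 3.94 SRPBM.

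Retromer and its sorting nexin coats were led by Snx5, a membrane-bending SNX-BAR protein of endosomal tubules. Its circle of exons 8 to 9 measured 22.4, 20.3, 24.7, 24.3, 21.7 and 22.1 SRPBM in PZH 1 to 6 and 17.5, 20.1, 19.4, 20.99, 24.5 and 22.6 in Control 1 to 6. Means of 22.6 ± 1.67 and 20.8 ± 2.47 gave a log2 fold change of 0.12 with a 95% interval of -0.24 to 0.48. Snx5 had the highest summed circular signal of the 106 hosts, 48.6 SRPBM over 11 circles, followed by Vps13b (45.9), Tbc1d14 (35.9), Tbc1d5 (35.6) and Vps45 (35.4). Exons 6 to 9, with the same donor, read 13.8 ± 3.10 against 13.7 ± 3.35. Of 12 circles tested in this group 9 had a positive sign, and 8 under either other scaling. With zeros as missing it was 9 of 11, and with 1 library left out 6 to 10 of the 10 to 12 still tested. These circles come from Snx1, Snx2, Snx5, Snx6 and Snx27, and none from Vps26a, Vps29, Vps35 or Vps35l could be tested. Snx1, another SNX-BAR protein, gave exons 2 to 4 at 3.29, 0.785 and 2.75 SRPBM in PZH 3, 4 and 6, 0 in the other 3 PZH libraries and 0.996 to 3.33 in Control (log2 fold change -0.96, SE 0.65, and 0.07 with zeros as missing). Of the other sorting nexins, Snx13, a protein of ER contact sites, gave exons 2 to 5 at 17.7 ± 4.65 against 20.9 ± 6.22 SRPBM and 15 circles in all. Snx25 exons 4 to 5 read 2.13 to 4.53 in 4 PZH libraries and 2.53 to 6.32 in all 6 Control libraries (log2 fold change -1.15, SE 0.63, limma adjusted p = 0.686).

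VPS13 proteins are long bridges that move lipids between membranes, and their 4 genes gave 59 circles, of which 14 were tested and 9 had a positive sign (5 of 11 with zeros as missing). Vps13b, which acts at the Golgi, hosted the most of any gene in the set, 26 circles with 16 start and 16 end positions. The circle with the smallest unadjusted p of the 95 was Vps13b exons 18 to 19 (309 nt), at 5.12, 2.83, 0, 9.56, 2.94 and 1.42 SRPBM in PZH 1 to 6 and 10.8, 8.08, 8.44, 15.6, 7.33 and 11.1 in Control 1 to 6. Only PZH 4 reached into the Control range. Its log2 fold change was -1.75 (SE 0.52) with an unadjusted p of 0.0029 that did not pass adjustment (limma adjusted p = 0.408). When entries at 0 were treated as missing it was -1.29 with an adjusted p of 0.0281 (limma), the one call of a trafficking circle under any setting tried. That setting called more circRNAs over the whole table too, 15 of 3380 tested, against 2 of 3870 as fitted. Leaving out PZH 3, the library with the 0, gave the same -1.29 with an adjusted p of 0.568. The highest Vps13b circle, exons 31 to 33, read 7.43 to 17.5 SRPBM with PZH and 8.21 to 17.3 in Control, with a log2 fold change of -0.16. Exons 18 to 21, with the same acceptor as exons 18 to 19, had a log2 fold change of 0.50 (SE 0.68). Whether those values differ from that of exons 18 to 19 was not tested.

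Vps13b exon 34, a single-exon circle, was the only trafficking circle above 0 in at least 5 libraries of 1 group and at most 1 of the other. It read 1.56, 1.66, 0.966, 0.621 and 1.00 SRPBM in PZH 1, 2, 3, 4 and 6, 0 in PZH 5 and 2.63 in Control 5, with 0 in the other 5 Control libraries. Such a pattern was held by 0.274% of all circRNAs, and the mirror pattern by 0 trafficking circles against 0.152%. Vps13c, which links the ER to late endosomes, gave exons 2 to 5 at 18.2 ± 3.06 against 17.0 ± 4.58 SRPBM. Vps13d, an essential member linked to mitochondria and peroxisomes, gave exons 66 to 67 at 10.2 ± 3.49 against 6.18 ± 2.43 (log2 fold change 0.68, SE 0.34, unadjusted p = 0.0557, limma adjusted p = 0.654). Vps13a exons 25 to 28 read 2.43 to 3.92 in 4 PZH libraries and 1.44 to 6.64 in all 6 Control libraries (log2 fold change -1.02, SE 0.64). ESCRT genes, whose complexes bud vesicles into endosomes, gave only 6 circles from Vps36, Vps37a and Vps4b, and none could be tested. The highest, Vps37a exons 2 to 4, read 1.36 SRPBM in PZH 1, 0.649 in Control 1 and 0.693 in Control 4.

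Ends were shared within hosts. The 449 circles used 304 acceptor positions, of which 89 served at least 2 circles, and 338 donor positions, of which 81 did, with the few ends off an annotated boundary counted too. Sequence at one end was thus often common to several circles, and such circles are not independent. Tbc1d14 had 5 circles starting at exon 4 and 5 ending at exon 7, and the map of 4 hosts shows these fans. Circles with a common end were also compared over the 12 libraries, as a description only, since those libraries differ in depth and group. The log2 levels of Tbc1d5 exons 10 to 13 and 9 to 13 had a Pearson r of 0.50. Those of Snx5 exons 8 to 9 and 6 to 9 had -0.25, and those of Sec31a exons 2 to 5 and 2 to 4 had -0.12. For Snx13 exons 2 to 5 and 2 to 3 the r was -0.08, and for Vps13b exons 4 to 6 and 4 to 7 it was 0.01.

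**Figure D5:**
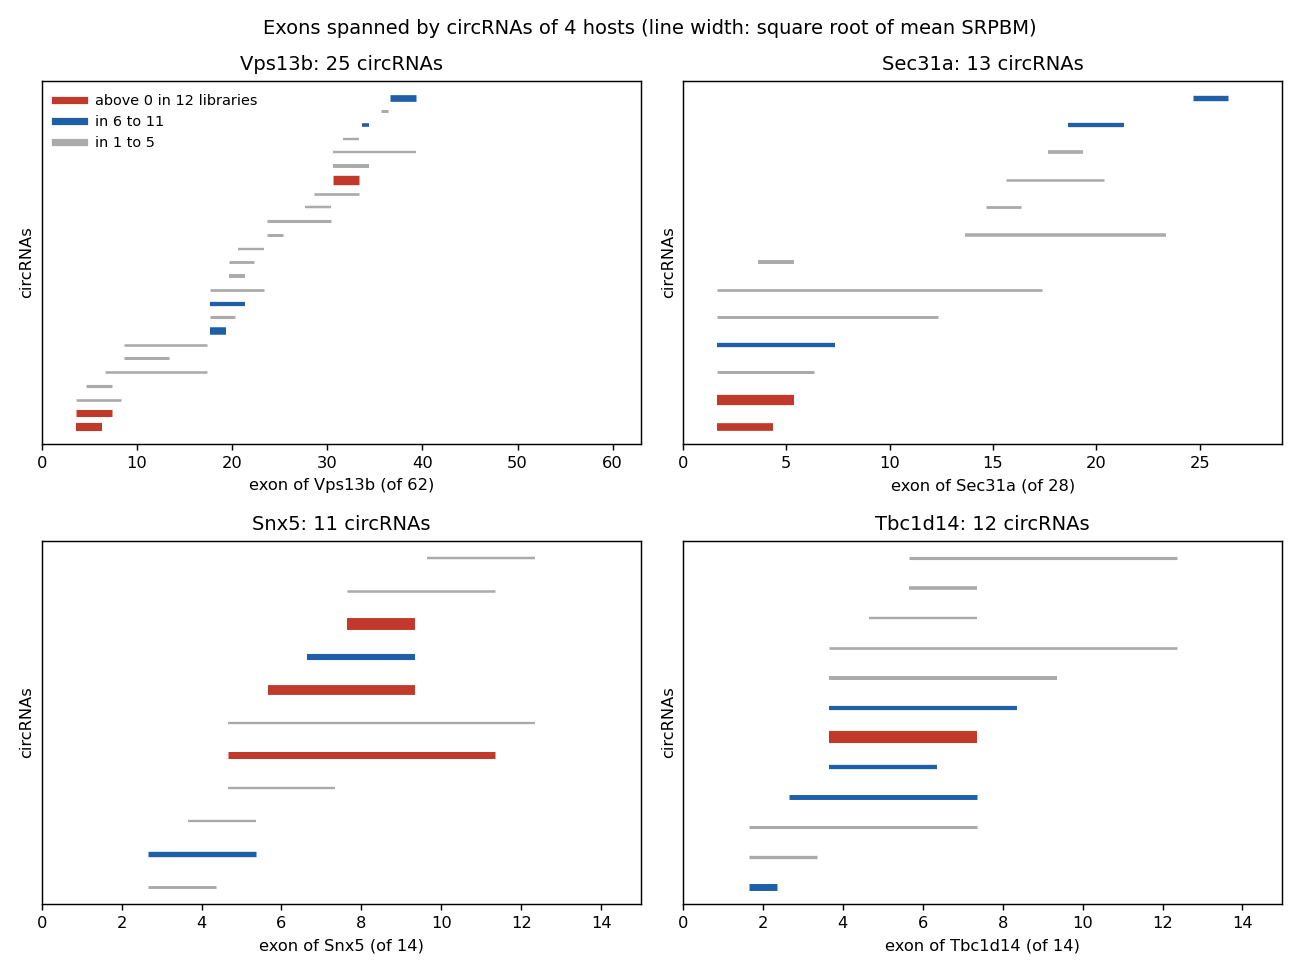
Exons spanned by each circle with both ends on boundaries (horizontal lines) along the exons of the reference transcript (x axis) for Vps13b, Sec31a, Snx5 and Tbc1d14; line width follows the square root of mean SRPBM, and colour the number of libraries above 0. Vps13b circles spread along the gene up to exon 39 of 62, while 6 Sec31a circles start at exon 2 and 5 Tbc1d14 circles start at exon 4.

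Choice among circles was tested as the log2 ratio of a host's most abundant circle to the sum of its others, for 866 hosts with at least 2 tested circles, 22 of them trafficking hosts. None of the 22 passed adjustment, nor did any of the 866 (0.0%). At an unadjusted p under 0.05, 1 ratio was higher with PZH (background 3.35%) and 1 lower (3.58%), 2 of 22 in either direction against 6.93%, and 9 of 22 were positive, against 49.7% of all. For Tbc1d12 the log2 ratio of exons 2 to 3 to the rest was 0.52 ± 0.80 with PZH and -0.68 ± 0.88 in Control (SD, n = 6 each), a difference of 1.21 (SE 0.49, limma adjusted p = 0.651). Exons 4 to 6, part of that rest, was listed at 0 in PZH 1, 2 and 4, where the ratios were 1.09, 0.60 and 1.54. In PZH 3, 5 and 6 the ratios were -0.07, 0.68 and -0.70. The part of those zeros in the difference was not tested. For Snx1 the ratio of exons 2 to 4 to the rest was -0.11 ± 0.62 and 1.00 ± 0.92, a difference of -1.11 (SE 0.47, limma adjusted p = 0.664). In PZH 1, 2 and 5 every Snx1 circle was listed at 0, so those 3 ratios are 0 by construction and compare no circles; this is the 1 lower ratio counted above, and no weight rests on it. Next came Vps54, where the ratio of exons 2 to 3 to the rest differed by -1.19 (SE 0.57) with every Vps54 circle at 0 in Control 2, and among higher ratios Tbc1d1 exons 9 to 13, at 1.34. For Vps45 the ratio stood at 2.77 ± 0.37 with PZH and 4.10 ± 1.83 in Control, and 4 Control libraries in which its other circles were all at 0 had ratios of 4.98 to 5.62.

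Trafficking genes outside the name rule gave a frame for these values. Of 169 listed genes (Rab partners, clathrin adaptors, SNAREs, COPI, COG, Golgi tethers and others), 123 hosted 681 circRNAs, and 167 were tested. None passed adjustment. At an unadjusted p under 0.05, 7 of 167 were higher, against 4.55% of all circRNAs tested, and 3 of 167 lower, against 3.0%. The sign was positive for 90 of 167, against 54.3% of all, with a median log2 fold change of 0.06. All 3 shares lie below the background, and the circles named next are a description. The highest was Rabep1 exons 2 to 3, from the Rab5 effector rabaptin-5, at 223 ± 40.7 SRPBM with PZH and 228 ± 32.2 in Control. Agap1 exons 2 to 6, from an Arf GAP, had the smallest p: it read 3.10 to 8.15 SRPBM in all 6 PZH libraries, 3.93 and 2.64 in Control 1 and Control 5 and 0 in the other 4 (log2 fold change 2.40, SE 0.65, unadjusted p = 0.0014, limma adjusted p = 0.363). Cog5 exons 12 to 14 and Eps15l1 exons 15 to 21 followed among those higher with PZH, with log2 fold changes of 2.03 (SE 0.68) and 0.57 (SE 0.20) and limma adjusted p of 0.454 and 0.485. The Cog5 circle was above 0 in 6 PZH libraries (3.09 to 14.7 SRPBM) and 3 Control libraries (3.60 to 7.19). Rabgap1 exons 2 to 5, Lyst exons 30 to 31 and Eea1 exons 3 to 5 were the 3 lower ones, with log2 fold changes of -1.63, -0.70 and -1.39 and limma adjusted p of 0.578, 0.613 and 0.639. The Rabgap1 circle was above 0 in 2 PZH libraries (3.77 and 2.93 SRPBM) and 6 Control libraries (1.89 to 5.28). Eea1 was above 0 in 3 PZH libraries (2.15 to 2.52) and 6 Control libraries (1.90 to 5.13). For both, the PZH values above 0 lay inside the Control range. The next 2 in level, Evi5 exons 15 to 17 and Rabep1 exons 2 to 4, read 79.4 ± 13.3 against 92.9 ± 12.8 and 76.6 ± 5.64 against 65.6 ± 11.1 SRPBM.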

How the data were processed

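Total RNA of 12 livers was sequenced, and the deposited table gives circRNA signal per library in SRPBM. Per the submitters' processing notes Trim Galore, STAR and the mm10/GRCm38 build were used; which program called the circRNAs, with which version and SRPBM formula, is not given in the sources used here. Reads could not be recovered from the deposited signal, so depth is known only in read-pair equivalents (value divided by 0.5 of the library's smallest value above 0, an inference from the value steps). No strand is given in the table: strand is the host's.

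Positions were matched to GENCODE M21 exons, and exon numbers follow 1 transcript. The inside of a circle was not measured. Lengths, sequences and coding content assume that all annotated exons between its ends are kept and all introns removed. limma 3.58.1 (R 4.3.3) with a variance trend was fitted to log2(SRPBM + 0.636), the pseudocount being the median of the libraries' smallest values, for circRNAs above 0 in at least 6 of 12 libraries; host sums and circle ratios were fitted the same way. Tests are 2-sided, adjusted by Benjamini-Hochberg over all features fitted. The fit was run on simulated counts with changes placed only in the more abundant circRNAs. Those counts did not model isolated entries at 0, so the run says nothing of circles that have them. Fold changes are on the log2(value + pseudocount) scale. The pseudocount makes those of low circles smaller, but a listed 0 can make a fold change larger, as for the Exoc4 and Vps41 circles above. Tables and drawings were made with Python 3.11.15 and pandas 2.3.3.

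Circles were named by rule: the 10 highest, the 8 smallest p in each direction, the 3 highest of each name family, the highest of each complex, those above 0 in at least 5 libraries of 1 group and at most 1 of the other, and the leading hosts and ratios; of the listed other genes, the 3 highest and the 3 smallest p in each direction. Circles named beyond it were chosen after their values were seen. They are the one-ended Vps45 junction, Snx13 exons 2 to 8, Tbc1d12 exons 7 to 8 and Snx9 exons 2 to 5. Also so chosen were Vps13a exons 20 to 39, Vps13b exons 4 to 6 and 4 to 7, and circles that share an end with a named one. The members and lists were chosen with earlier results of these data known. The labels state no pairing of mice by replicate number, and none was seen in the libraries, by a check that cannot exclude it. The junction sequence of 1 circle is not reported here.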

Additional observations from a re-analysis of the deposited data

Results flagged for a closer look

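Of 80 groups of 6 values examined (33 named circles, the summed signal and 6 family sums, in each group of mice), 4 held 1 library far from the other 5. For values with a normal spread chance alone gives about 1 in 20. That rate does not cover groups filled with zeros, such as those of Vps13b exon 34 and Vps37a below. The sums also contain the named circles, so the groups are not independent. The Exoc4 circle of exons 8 to 9 read 26.1 SRPBM in Control 5, where the nearest Control library read 18.5. Vps13b exon 34 read 2.63 SRPBM in Control 5 and was listed at 0 in the other 5 Control libraries. Vps37a exons 2 to 4 read 1.36 SRPBM in PZH 1 and 0 in the other 5 PZH libraries. The summed Sec circles stood at 38.3 SRPBM in Control 2, the library with the lowest total, where the nearest Control library had 67.9.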

How the results depend on the processing

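No trafficking circle passed adjustment under any other pseudocount, filter, scaling, variance model, membership rule, exact rank-sum test or left-out library. Treating zeros as missing, an alternative added after seeing the data, gave 1 of 78 tested (Vps13b exons 18 to 19). Over all circRNAs that setting called 15 of 3380, where the fit of the report called 2 of 3870. Host sums and circle ratios gave 0 under every setting run for them. At an unadjusted p under 0.05 the count of circles higher with PZH was 2 of 95 tested in the report. It was 7 of 169 with a filter of 3 libraries and 5 of 78 with zeros as missing. Of the same 95 it was 4 with no variance trend and 4 by the exact rank-sum test. With 1 library left out it was 2 to 6 (6 of 88 without Control 1, 4 without Control 3 or PZH 4). The count lower, 1 of 95 in the report, was 2 with either other pseudocount, either other scaling, no variance trend or the replicate block. It was 4 of 169 with the filter of 3 libraries, 0 of 27 with values in all 12 and 3 of 78 with zeros as missing. With 1 library left out it was 1 to 3 (3 without PZH 3). The share of all circRNAs at that p is not given for these settings, so the counts are no result about trafficking circles. With group means removed, same-numbered libraries had correlations from -0.05 to 0.02, and differently numbered ones from -0.06 to 0.03. Many of the circRNAs tested have entries at 0, so low correlations cannot exclude a pairing of the mice. The replicate block changed no call of a trafficking circle. Over all circRNAs tested it called 1 where the fit without it called 2.

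Of 32 named circles tested, 10 changed sign somewhere. With zeros as missing the log2 fold change was 0.0077 for Exoc4 exons 8 to 9, -0.0387 for Rab2a exons 4 to 6, 0.0717 for Snx1 exons 2 to 4 and 0.13 for Tbc1d12 exons 4 to 6. Under median-of-ratios scaling and scaling by summed SRPBM it was -0.0208 and -0.0262 for Rab3gap1 exons 17 to 19 and -0.0280 and -0.0340 for Snx5 exons 6 to 9. With 1 library left out it ran from -1.04 to 0.0077 for Exoc4 exons 8 to 9, -0.0387 to 0.850 for Rab2a exons 4 to 6, -0.147 to 0.156 for Rab3gap1 exons 17 to 19, -0.0643 to 0.210 for Sec31a exons 2 to 5, -0.0263 to 0.247 for Sec63 exons 2 to 4, -0.0767 to 0.138 for Snx5 exons 6 to 9, -0.215 to 0.0630 for Tbc1d14 exons 4 to 7 and -0.0390 to 0.413 for Tbc1d5 exons 10 to 13. The cause of these changes was not tested beyond the library or zero each setting removes. Circles with an entry at 0 had a median of 6.95 read-pair equivalents per library, against 26.7 for those above 0 in all 12; the part of depth in their larger standard errors was not tested.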
